A study of Homo sapiens with 30 samples.

Results

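The BTG/TOB and ZFP36 proteins are small families of mRNA-decay factors, and their transcript levels were followed in 5 malignant T-cell lines with and without CHOEP. The family was defined as 10 genes: BTG1, BTG2, BTG3, TOB1, TOB2, ZFP36, ZFP36L1, ZFP36L2 and the deadenylases CNOT7 and CNOT8. Probes were taken by gene symbol, old or current. Of the 10 genes, 9 had a named probe, with 13 probes in all among 47323 with values, and all 13 passed the filter on dim probes. BTG2 has no probe that carries its symbol in the probe table used here, so no level of it is reported. The study lists BTG2 among the genes up after CHOEP on the same arrays, so the gap lies in that probe table. BTG1, BTG2 and ZFP36L2 were selected on their CHOEP response in these same arrays, so for BTG1 and ZFP36L2 the response is described with its standard error and is not tested. The other 7 genes are called relatives below, and their responses were tested.

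BTG and TOB proteins share a domain that binds CNOT7 and CNOT8, which are among the catalytic deadenylases of the CCR4-NOT complex. The complex shortens poly(A) tails and so starts the decay of mRNAs. ZFP36 proteins carry zinc fingers that bind AU-rich elements in the 3′ end of cytokine and growth-regulatory mRNAs and bring CCR4-NOT to them. In T cells BTG1 and BTG2 are known as factors of quiescence, and in mice ZFP36L1 and ZFP36L2 act together in early T-cell development.

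The groups were untreated cultures and cultures exposed to CHOEP for 24 h in each line, with 3 cultures per group and 30 arrays in all. The leukaemia lines were JURKAT and HD-MAR-2. Of the lymphoma lines, SUP-T1 is lymphoblastic, HH cutaneous and KARPAS-299 of the anaplastic large cell type. CHOEP combines cyclophosphamide, doxorubicin, vincristine, prednisone and etoposide, and each line received its own IC50. Each line is 1 established cell line, and the submitters describe its cultures as biological replicates. Levels are normalised signals on the log2 scale, where 1 unit is a doubling, and they compare the same probe between arrays, not different genes.

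The number of detected probes was 16003 to 18239 per array, and all 30 arrays were most like another array of their own line. All 10 T-cell markers examined were detected on every array of HD-MAR-2, SUP-T1 and JURKAT. In HH 7 were, with CD28 and LCK on no array, and in KARPAS-299 4 were, with CD3E, CD3G, CD2 and LCK on no array. ALK was detected on all 6 KARPAS-299 arrays. The erythroid marker HBB was detected on none of the 30. Of the epithelial markers, EPCAM was detected on none and KRT18 on all 6 KARPAS-299 arrays and 1 SUP-T1 array. Of 9 markers of other cell types, 1 to 3 were detected on all 6 arrays of a line. CD79A was so in every line but KARPAS-299, and LYZ in KARPAS-299, JURKAT and HH. The others were CSF1R in KARPAS-299 and HH, CD14 in SUP-T1 and JURKAT, and KRT18 in KARPAS-299. The arrays of a line shared a chip with no other line, so that line and chip cannot be told apart, and on every chip treated and untreated arrays had separate positions, so that position and treatment cannot be told apart.

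The upstream windows of 4 members whose levels differed after CHOEP are shown, since they let the promoters of near relatives be compared. Each window holds the 250 bases before a start site, 5′ to 3′ on the gene's strand, from RefSeq on GRCh38.p14. Capitals mark letters that match the FOXO core GTAAACA, the glucocorticoid half-site AGAACA, the cAMP response element (CRE) TGACGTCA, its half-site TGACG (which the full CRE contains), the CCAAT box or the TATA box TATAAA, on either strand. The BTG1 window is chr12:92145847-92146096 (minus strand), that of BTG3 is chr21:17612902-17613151 (minus), that of TOB1 is chr17:50866355-50866604 (minus) and that of ZFP36L1 is chr14:68793417-68793666 (minus). TOB1 and ZFP36L1 have a further window each, which is not printed and lies just outside the gene span, whereas the printed windows of both lie within it. The TOB1 window not printed held no match. That of ZFP36L1 held a CRE half-site and a CCAAT box but not the full CRE.
BTG1: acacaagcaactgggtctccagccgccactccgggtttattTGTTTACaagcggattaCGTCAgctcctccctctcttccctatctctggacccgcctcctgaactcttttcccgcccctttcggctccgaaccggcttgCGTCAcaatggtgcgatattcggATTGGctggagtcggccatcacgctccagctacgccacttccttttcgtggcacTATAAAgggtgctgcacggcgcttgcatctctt
BTG3: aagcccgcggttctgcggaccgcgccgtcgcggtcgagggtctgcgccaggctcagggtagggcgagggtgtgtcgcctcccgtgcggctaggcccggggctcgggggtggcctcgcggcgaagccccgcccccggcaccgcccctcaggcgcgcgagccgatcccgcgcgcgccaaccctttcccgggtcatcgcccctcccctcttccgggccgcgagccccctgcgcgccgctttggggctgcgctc
TOB1: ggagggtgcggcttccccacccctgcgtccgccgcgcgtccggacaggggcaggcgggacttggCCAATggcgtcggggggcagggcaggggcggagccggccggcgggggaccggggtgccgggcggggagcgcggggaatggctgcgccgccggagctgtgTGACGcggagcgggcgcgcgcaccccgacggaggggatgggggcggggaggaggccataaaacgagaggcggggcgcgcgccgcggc
ZFP36L1: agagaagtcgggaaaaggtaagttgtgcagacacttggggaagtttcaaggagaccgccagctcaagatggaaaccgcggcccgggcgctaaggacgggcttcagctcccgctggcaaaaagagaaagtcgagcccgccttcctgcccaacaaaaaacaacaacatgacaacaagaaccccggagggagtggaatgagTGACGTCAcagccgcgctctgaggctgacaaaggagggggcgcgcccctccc

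Windows of 8 members were searched, 12 in all, and RefSeq windows of the same length numbered 35116. The BTG1 window held a FOXO core that began at -209, a TATA box at -33, a CCAAT box at -87 and CRE half-sites at -192 and -110. A FOXO core was found in 2.98% of all windows and a TATA box in 10.7%, and of the 12 member windows only the BTG1 window held either. The printed ZFP36L1 window held the full CRE at -52, which 1.65% of all windows held and no other member window. CRE half-sites occurred in 6 of 12 member windows against 21.2% of all, and CCAAT boxes in 4 of 12 against 32.0%. The glucocorticoid half-site was found in 1 member window, a window of CNOT8, against 12.4% of all. The E-box CACGTG (6.34% of all) and the AP-1 element TGANTCA (6.57%) were in none of the 12. The printed BTG3 window, which was 78.4% G and C against 56.4% for BTG1, held none of these letters. A match is a description of the letters and not a binding site.

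BTG1 was higher after CHOEP in 4 of 5 lines, and ZFP36L2 in all 5, by up to 6.21-fold. BTG1 (chromosome 12, 92140278 to 92145846) showed no such difference in KARPAS-299, and ZFP36L2 (chromosome 2, 43222402 to 43226606) differed least in JURKAT. The array values of BTG1 show this line by line. In SUP-T1 untreated arrays read 11.48, 11.25 and 11.29 and CHOEP-treated arrays 14.10, 14.06 and 13.76, a difference of 2.64 ± 0.14 (SE, n = 3 per group), or 6.21-fold. In HD-MAR-2 the values were 12.92, 12.85 and 12.56 untreated and 14.34, 14.61 and 14.45 treated, a difference of 1.69 ± 0.14. Thus in both lines the lowest treated array lay above the highest untreated array by over 1 unit. In JURKAT the values were 11.13, 11.34 and 11.32 untreated and 12.50, 12.60 and 12.41 treated, a difference of 1.24 ± 0.14 (2.35-fold). In HH they were 12.98, 12.84 and 12.84 untreated and 14.09, 14.02 and 14.02 treated, a difference of 1.16 ± 0.14 (2.23-fold). In KARPAS-299 the untreated arrays, at 12.44, 12.69 and 12.01, spanned the treated ones, at 12.25, 12.38 and 12.24. The groups overlapped there, with a difference of -0.09 and a 95% confidence interval from -0.37 to 0.19. Before CHOEP the BTG1 level of KARPAS-299 lay in the middle of the 5 lines, and after CHOEP it was the lowest of the 5 means.

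**Figure D1:**
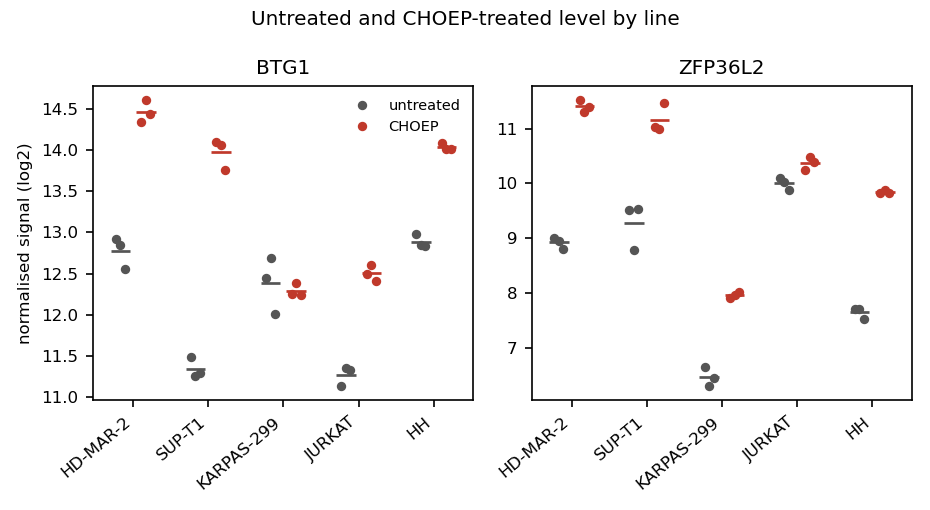
Normalised signal (log2) of BTG1 and ZFP36L2 on each array by line, untreated in grey and CHOEP-treated in red, with a short line at each group's mean of 3 cultures. BTG1 overlaps between treatments in KARPAS-299 alone, and ZFP36L2 lies higher after CHOEP in every line, by 0.37 in JURKAT and by 1.50 to 2.49 in the other lines.

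ZFP36L2, an AU-rich-element binder, was higher on every treated array than on any untreated array of the same line. In HD-MAR-2 the values were 9.01, 8.94 and 8.81 untreated and 11.52, 11.30 and 11.39 treated, a difference of 2.49 ± 0.15 (5.60-fold). In HH they were 7.71, 7.71 and 7.53 untreated and 9.83, 9.87 and 9.82 treated, a difference of 2.19 ± 0.15 (4.57-fold). These were the largest ZFP36L2 differences, and the treated HH cultures lay within 0.1 of each other. In SUP-T1 untreated arrays read 9.51, 8.78 and 9.53 and treated arrays 11.03, 10.99 and 11.47, a difference of 1.89 ± 0.15. In KARPAS-299 they read 6.64, 6.30 and 6.44 untreated and 7.90, 7.96 and 8.02 treated, a difference of 1.50 ± 0.15 (2.83-fold). The ZFP36L2 probe was detected on 2 of 3 untreated arrays there and on every other array of the series. The difference in KARPAS-299 was 0.98 in the authors' normalised values, below a doubling. In JURKAT the values were 10.09, 10.03 and 9.89 untreated and 10.24, 10.48 and 10.40 treated, a difference of 0.37 with a 95% confidence interval from 0.06 to 0.68. JURKAT had the highest untreated ZFP36L2 level of the 5 lines.

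A gene was called in a line when it differed at least 2-fold at an adjusted p under 0.05. By this rule 9 of 45 member and line combinations were called up and 1 down. Of the 9, 8 were BTG1 or ZFP36L2, which were chosen for it, and nothing is read from that count. Among all 12482 genes tested the share called up was 1.92% in HH, 1.59% in SUP-T1, 1.86% in HD-MAR-2, 0.569% in KARPAS-299 and 0.0481% in JURKAT. The share called down was 0.857%, 0.817%, 1.8%, 0.729% and 0% in the same order. Of the 35 combinations of a relative and a line, 1 was called up, TOB1 in SUP-T1, and 1 down, BTG3 in HD-MAR-2. Arrays measure RNA from whole cultures, in which a change in every cell and a change in the share of cells cannot be told apart.

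At an adjusted p under 0.05 without the fold threshold, relatives rose in 4 of 35 combinations and fell in 6. The genes that fell were BTG3 and ZFP36L1, each in HH, HD-MAR-2 and SUP-T1. Those that rose were TOB1 in the same 3 lines and CNOT8 in HD-MAR-2. No relative passed this test in KARPAS-299 or JURKAT. Among all genes the share that rose by this test was 9.89% in HH, 12.3% in SUP-T1, 14.9% in HD-MAR-2, 2.8% in KARPAS-299 and 0.12% in JURKAT. The share that fell was 9.64%, 13.9%, 15.8%, 4.02% and 0.024% in this order. Both shares were thus largest in HH, SUP-T1 and HD-MAR-2, the lines in which relatives passed. Per line the relatives numbered 7, of which 2 rose and 2 fell in HD-MAR-2, 1 rose and 2 fell in SUP-T1, and 1 rose and 2 fell in HH.

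BTG3 (chromosome 21, 17593653 to 17612901), an antiproliferative relative of BTG1, fell where BTG1 was higher in 3 lines. In HD-MAR-2 its values were 11.46, 11.30 and 11.53 untreated and 10.10, 10.03 and 10.03 treated, a fall of 2.60-fold (limma, adjusted p = 2.19e-10). In SUP-T1 they were 12.14, 12.01 and 12.15 untreated and 11.45, 11.22 and 11.26 treated, a difference of -0.79 ± 0.11 (limma, adjusted p = 3.29e-06). In HH they were 11.61, 11.67 and 11.64 untreated and 10.93, 11.17 and 11.06 treated, a difference of -0.59 ± 0.11 (limma, adjusted p = 0.000198). In each of these 3 lines every treated array lay below every untreated array. In KARPAS-299 untreated arrays read 11.50, 11.12 and 11.23 and treated arrays 11.03, 11.10 and 11.02, a difference of -0.23 (limma, adjusted p = 0.237). In JURKAT they read 11.18, 11.04 and 10.90 untreated and 10.95, 10.74 and 10.89 treated, a difference of -0.18 (limma, adjusted p = 0.865).

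BTG3 was also read by a second, dimmer probe. On that probe, ILMN_2154836, the BTG3 difference was -1.09 in SUP-T1, -1.36 in HD-MAR-2 and -0.65 in HH, with limma adjusted p of 0.00065, 4e-05 and 0.0415. The SUP-T1 difference of BTG3 was thus past 2-fold on this probe and not on the brighter one, ILMN_1707339. In KARPAS-299 and JURKAT the second probe gave -0.31 and -0.13. The probes agreed in sign in all 5 lines, though the standard error of the second was 0.22 against 0.11.

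TOB1 (chromosome 17, 50862223 to 50867978), another antiproliferative protein of the same domain family, rose in SUP-T1, HH and HD-MAR-2. In SUP-T1 its values were 9.83, 9.82 and 10.03 untreated and 11.41, 11.38 and 11.88 treated, a rise of 3.18-fold (limma, adjusted p = 2.09e-09). In HH they were 10.35, 10.49 and 10.76 untreated and 11.55, 11.37 and 11.47 treated, a difference of 0.93 ± 0.14 (limma, adjusted p = 2.39e-05). In HD-MAR-2 they were 9.30, 9.65 and 9.42 untreated and 9.86, 10.00 and 10.00 treated, a difference of 0.50 ± 0.14 (limma, adjusted p = 0.00966). The treated arrays were all above the untreated ones in these 3 lines, and the rise in HD-MAR-2 was the smallest. It was lost under median scaling (0.21, adjusted p = 0.31) and without HD-MAR-2 untreated replicate 1 (0.42, adjusted p = 0.0569). In KARPAS-299 the TOB1 difference was 0.42 (limma, adjusted p = 0.0833), with treated arrays at 9.91, 10.14 and 9.78 against 9.55, 9.47 and 9.55. Without SUP-T1 CHOEP replicate 3 the same KARPAS-299 difference had an adjusted p of 0.0474. In JURKAT the groups overlapped, with treated arrays at 8.73, 8.36 and 8.47 against 8.39, 8.57 and 8.13, a difference of 0.15 (limma, adjusted p = 0.96).

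ZFP36L1 (chromosome 14, 68787655 to 68796243), the closest relative of ZFP36L2, fell in 3 of the 4 lines in which ZFP36L2 was at least 2-fold higher. In HD-MAR-2 its values were 9.93, 9.89 and 9.66 untreated and 9.08, 9.24 and 9.27 treated, a difference of -0.63 ± 0.12 (limma, adjusted p = 0.00028). In SUP-T1 they were 9.50, 9.32 and 9.45 untreated and 8.64, 8.79 and 9.02 treated, a difference of -0.60 ± 0.12 (limma, adjusted p = 0.00055). In HH they were 10.47, 10.25 and 10.41 untreated and 9.83, 9.78 and 9.67 treated, a difference of -0.62 ± 0.12 (limma, adjusted p = 0.000515). The 3 falls were about 1.5-fold each, short of the 2-fold threshold, and no treated array overlapped the untreated ones. In KARPAS-299 the ZFP36L1 arrays read 11.39, 11.58 and 11.37 untreated and 11.42, 11.08 and 11.27 treated, a difference of -0.19 (limma, adjusted p = 0.487). In JURKAT they read 10.01, 10.33 and 10.39 untreated and 10.02, 10.11 and 10.24 treated, a difference of -0.12 (limma, adjusted p = 0.978). In both lines the groups overlapped.

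**Figure D2:**
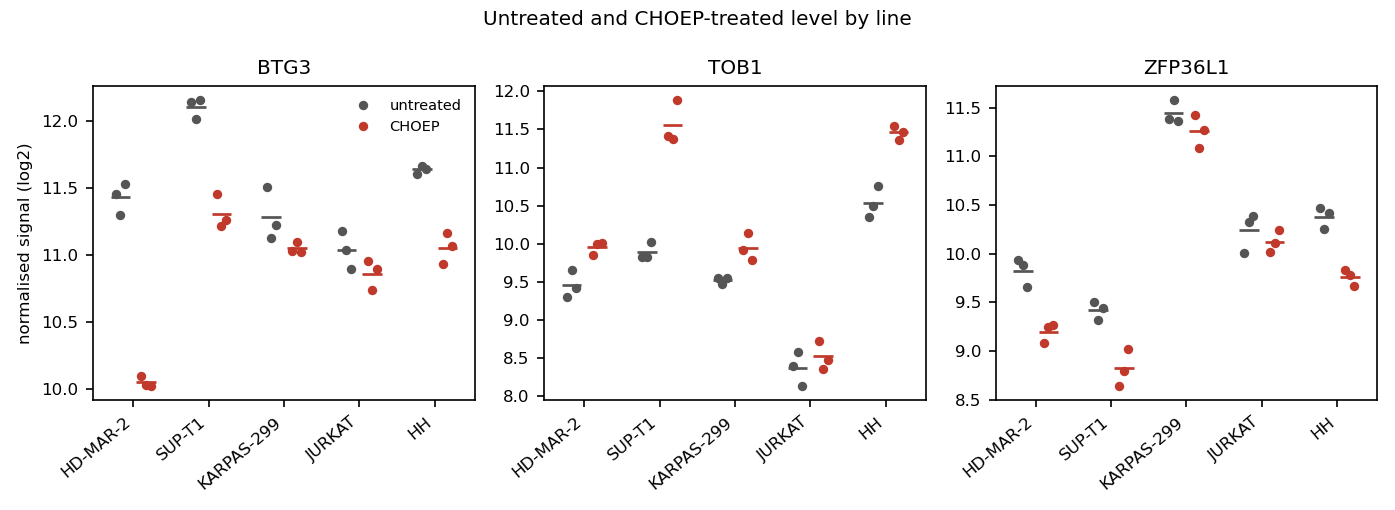
Normalised signal (log2) of BTG3, TOB1 and ZFP36L1 on each array by line, untreated in grey and CHOEP-treated in red, with a short line at the mean of 3 cultures. In HH, HD-MAR-2 and SUP-T1 the treated arrays lie below the untreated ones for BTG3 and ZFP36L1 and above them for TOB1, and in JURKAT the groups overlap for all 3 genes.

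The response to CHOEP differed between lines for BTG3 (limma F test, adjusted p = 2.47e-06), TOB1 (adjusted p = 1.27e-05) and ZFP36L1 (adjusted p = 0.0274), which makes 3 of the 7 relatives. The same test passed for 35.1% of all genes. The dose was each line's own IC50, so line and dose cannot be told apart in it. BTG3 and TOB1 kept this result under every alternative that gives the test. That of ZFP36L1 was lost under median scaling (adjusted p = 0.11) and without JURKAT CHOEP replicate 3 (adjusted p = 0.0593) or JURKAT untreated replicate 1 (adjusted p = 0.0551). For TOB2, ZFP36, CNOT7 and CNOT8 the adjusted p of this test was 0.138, 0.25, 0.601 and 0.262. Without SUP-T1 CHOEP replicate 2 it was 0.0361 for TOB2 and 0.0347 for ZFP36, which would make 5 of 7. The differences of BTG1 and ZFP36L2 between lines are described above and were not tested.

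The remaining relatives showed small differences, of which only that of CNOT8 in HD-MAR-2 passed the test. ZFP36 (chromosome 19, 39406847 to 39409407), the founding member known as tristetraprolin, ranged from -0.29 in SUP-T1 to 0.45 in HH (SE 0.19), with limma adjusted p from 0.121 to 0.999. In HH its values were 9.86, 9.42 and 9.85 untreated and 9.95, 10.16 and 10.35 treated, so treated arrays were higher without overlap. In SUP-T1 treated arrays spread from 8.60 to 9.64, and without replicate 2, the highest of them, the difference was -0.55 (adjusted p = 0.031). TOB2 (chromosome 22, 41433494 to 41446801), the paralog of TOB1, ranged from -0.30 in KARPAS-299 to 0.32 in JURKAT (SE 0.18). No TOB2 adjusted p was under 0.305. CNOT7 (chromosome 8, 17224966 to 17246857) ranged from 0.00 in HH to 0.31 in KARPAS-299 (SE 0.13), with limma adjusted p of at least 0.214. The KARPAS-299 untreated arrays of CNOT7 read 12.44, 12.01 and 11.74, and without replicate 1, the highest, its difference was 0.50 (adjusted p = 0.0141).

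CNOT8 (chromosome 5, 154858249 to 154876792), the paralog of CNOT7, read 11.00, 10.89 and 10.98 untreated and 11.36, 11.25 and 11.19 treated in HD-MAR-2. This rise of 0.31 ± 0.11 (limma, adjusted p = 0.0383) turned to -0.01 under median scaling (adjusted p = 0.974) and was 0.05 on its other probe (adjusted p = 0.844). It missed the threshold without any 1 of the 6 HD-MAR-2 arrays, with adjusted p from 0.0507 to 0.137. Elsewhere CNOT8 differed by -0.09 to 0.08. The further probes of CNOT7 and CNOT8 gave no adjusted p under 0.109, and their differences did not all have the sign of the brightest probe: in HD-MAR-2 CNOT7 differed by 0.03 on that probe and by -0.24 and -0.45 on the others.

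**Figure D3:**
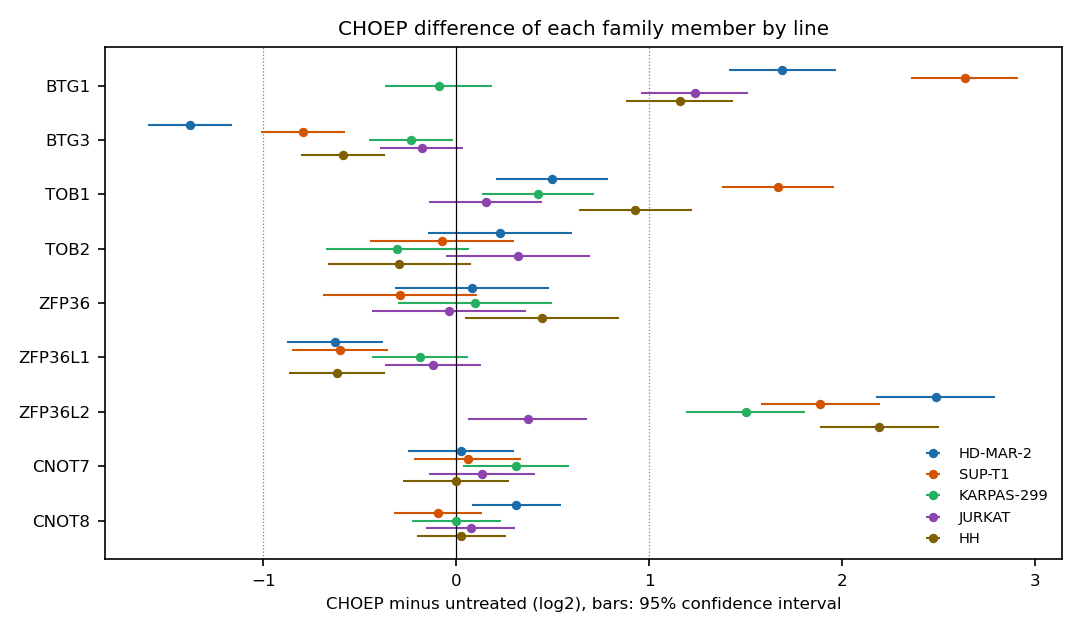
Difference between CHOEP-treated and untreated arrays (log2, horizontal axis) for the 9 measured members in each of 5 lines, with 95% confidence intervals from the fit over all arrays. Dotted lines mark a 2-fold difference: BTG1 and ZFP36L2 lie beyond it on the right in 4 lines each, TOB1 in SUP-T1, and BTG3 lies beyond it on the left in HD-MAR-2.

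On its brightest probe each of the 9 measured members differed between untreated lines (limma F test, largest adjusted p = 0.000875, for CNOT8). That test was passed by 95.5% of all genes. Of 90 comparisons of a member between a pair of untreated lines, 64 had an adjusted p under 0.05, or 71.1%, against 66.7% over all genes. On the brightest probe of each gene the widest span was that of ZFP36L2, followed by that of TOB1 and ZFP36L1. ZFP36L2 was highest in JURKAT, at 10.00 ± 0.10 (mean ± SD, n = 3), and then 9.27 ± 0.43 in SUP-T1, 8.92 ± 0.10 in HD-MAR-2, 7.65 ± 0.10 in HH and 6.46 ± 0.17 in KARPAS-299. Each step down this order passed the limma test, the closest being SUP-T1 over HD-MAR-2 (adjusted p = 0.0418). ZFP36L1 had another order, with KARPAS-299 highest at 11.44 ± 0.12 and SUP-T1 lowest at 9.42 ± 0.09. Between them lay HH at 10.38 ± 0.12 and JURKAT at 10.24 ± 0.20, which did not differ beyond their spread (limma, adjusted p = 0.327), and HD-MAR-2 at 9.83 ± 0.15. KARPAS-299 therefore had the lowest ZFP36L2 and the highest ZFP36L1 level of the 5 lines. ZFP36 was also highest in KARPAS-299, at 10.66 ± 0.13, but JURKAT at 10.38 ± 0.06 did not differ from it (limma, adjusted p = 0.211). The lower ZFP36 levels were 9.80 ± 0.40 in HD-MAR-2, 9.71 ± 0.25 in HH and 9.40 ± 0.27 in SUP-T1, and no neighbours among these differed.

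Untreated BTG1 fell into an upper and a lower set of lines. HH at 12.89 ± 0.08 and HD-MAR-2 at 12.78 ± 0.19 did not differ (limma, adjusted p = 0.499). KARPAS-299 followed at 12.38 ± 0.35, below HH (limma, adjusted p = 0.00196) and below HD-MAR-2 (adjusted p = 0.0128). SUP-T1 at 11.34 ± 0.12 and JURKAT at 11.27 ± 0.12 lay over 1 unit lower and did not differ from each other (limma, adjusted p = 0.658). SUP-T1, a low line, had the largest BTG1 difference after CHOEP (2.64), and in JURKAT, the other low line, it was 1.24. TOB1 was highest in HH at 10.53 ± 0.20 and lowest in JURKAT at 8.36 ± 0.22. The intermediate TOB1 levels were 9.89 ± 0.12 in SUP-T1, 9.52 ± 0.05 in KARPAS-299 and 9.45 ± 0.18 in HD-MAR-2, of which the last pair did not differ (limma, adjusted p = 0.697). TOB2 was also lowest in JURKAT, at 7.41 ± 0.16, and lay between 8.25 and 8.40 in the other 4 lines, which did not differ between neighbours.

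BTG3 was highest in untreated SUP-T1 at 12.10 ± 0.08 and lowest in JURKAT at 11.04 ± 0.14, with HH, HD-MAR-2 and KARPAS-299 at 11.64, 11.43 and 11.28 between them. SUP-T1 differed from HH (limma, adjusted p = 0.000381) and KARPAS-299 from JURKAT (adjusted p = 0.0449), and the neighbours between did not pass the test. The second BTG3 probe gave a different order, with HH highest at 11.19 and HD-MAR-2 lowest at 9.04, so the ranking of lines for BTG3 depends on the probe. Untreated CNOT7 spanned 11.98 in SUP-T1 to 12.73 in HH and CNOT8 10.60 in KARPAS-299 to 11.10 in HH. No neighbouring lines differed for either deadenylase on its brightest probe. The ranking for CNOT7 also depends on the probe: on ILMN_1715886 HD-MAR-2 was highest (12.35) and KARPAS-299 lowest (11.20). On that probe HH lay above JURKAT (limma, adjusted p = 0.00515) and JURKAT above SUP-T1 (adjusted p = 0.0219), and the other neighbours did not differ. On the dimmest CNOT7 probe, ILMN_1686477, untreated levels did not pass the limma F test (adjusted p = 0.111). The dimmer CNOT8 probe, ILMN_1736068, had a wider span, from 9.03 in SUP-T1 to 10.21 in HH, and placed KARPAS-299 above HD-MAR-2 (9.56 and 9.04).

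Over the 30 arrays the genes whose level followed BTG1 most closely were PIK3IP1 (Pearson r = 0.88), PAXIP1-DT (r = 0.87) and TSC22D3 (r = 0.87). For ZFP36L2 they were GCNA (r = 0.93), SLC25A42 (r = 0.90) and ULK1 (r = 0.90). These values describe 30 arrays that share 5 lines and 2 treatments, and are not tests. The study lists BTG1, PIK3IP1 and TSC22D3 among the genes up after CHOEP in these samples, so their likeness is no independent evidence.

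The other genes of the mRNA-decay pathway were taken as 7 lists with 116 genes, of which 100 were tested. In any line 2 of the 100 were called up and 3 down, or 2% and 3%, against 4.77% and 3.81% of all genes. No member was called in any line among the 12 tested subunits of the CCR4-NOT and PAN deadenylases, 7 poly(A)-binding proteins and their partners, 20 decapping and 5′-3′ decay factors, 17 exosome and 3′-5′ decay factors, and 9 kinases, phosphatases and partners of the family. The median difference of these 5 lists lay between -0.20 and 0.09 in the 5 lines, with all genes between -0.01 and 0.01. At an adjusted p under 0.05 alone, 5 of 17 exosome, 3 of 20 decapping and 2 of 12 deadenylase genes fell in HD-MAR-2, where 15.8% of all genes did. In SUP-T1 the numbers were 3 of 17, 5 of 20 and 2 of 12, where 13.9% of all genes fell.

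Among 20 other sequence-specific regulators of the 3′ end, 2 were called up. CELF2, an RNA-binding protein of splicing and mRNA stability, was higher by 1.74 ± 0.11 in KARPAS-299 and by 1.41 in SUP-T1. It was also higher, by less than 2-fold, in HD-MAR-2 at 0.79 and in HH at 0.76, and differed by 0.37 in JURKAT. CELF2 was picked by the study on these samples, so no p is given for it. Neither its direction nor its place among the 2 called up is independent evidence. SAMD4A, a translational repressor, was detected on no untreated and all 3 treated KARPAS-299 arrays and was at least 1.71-fold higher there (limma, adjusted p = 1.68e-06). This bound is under 2-fold, so the call of SAMD4A rests on fitted values that include untreated signal below detection.

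Among 15 tested mRNAs described as targets of the ZFP36 family, 3 were called down in any line and none up, where 3.81% and 4.77% of all genes were. TNF, the cytokine mRNA with the best-known AU-rich element, fell by 2.17 in KARPAS-299 (limma, adjusted p = 7.74e-13). In HH it was at least 2.56-fold lower (limma, adjusted p = 6.7e-12), being detected on all 3 untreated and no treated array, and it was detected on no array of HD-MAR-2, SUP-T1 or JURKAT. IER3, an immediate early stress gene, fell by 1.35 in KARPAS-299 and by 1.07 in HH (limma, adjusted p = 1.63e-05 and 0.000197). BCL2, the inhibitor of apoptosis, fell by 1.01 in SUP-T1 (limma, adjusted p = 0.000188) and was detected on no array of KARPAS-299 or HH. The median of the 15 ranged from -0.31 in SUP-T1 to 0.15 in HH. No target was called in HD-MAR-2 or JURKAT. At an adjusted p under 0.05 alone 3 of 15 rose and 3 fell in HD-MAR-2, where 14.9% and 15.8% of all genes did. Whether the level of ZFP36L2 bears on these mRNAs was not tested.

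**Figure D4:**
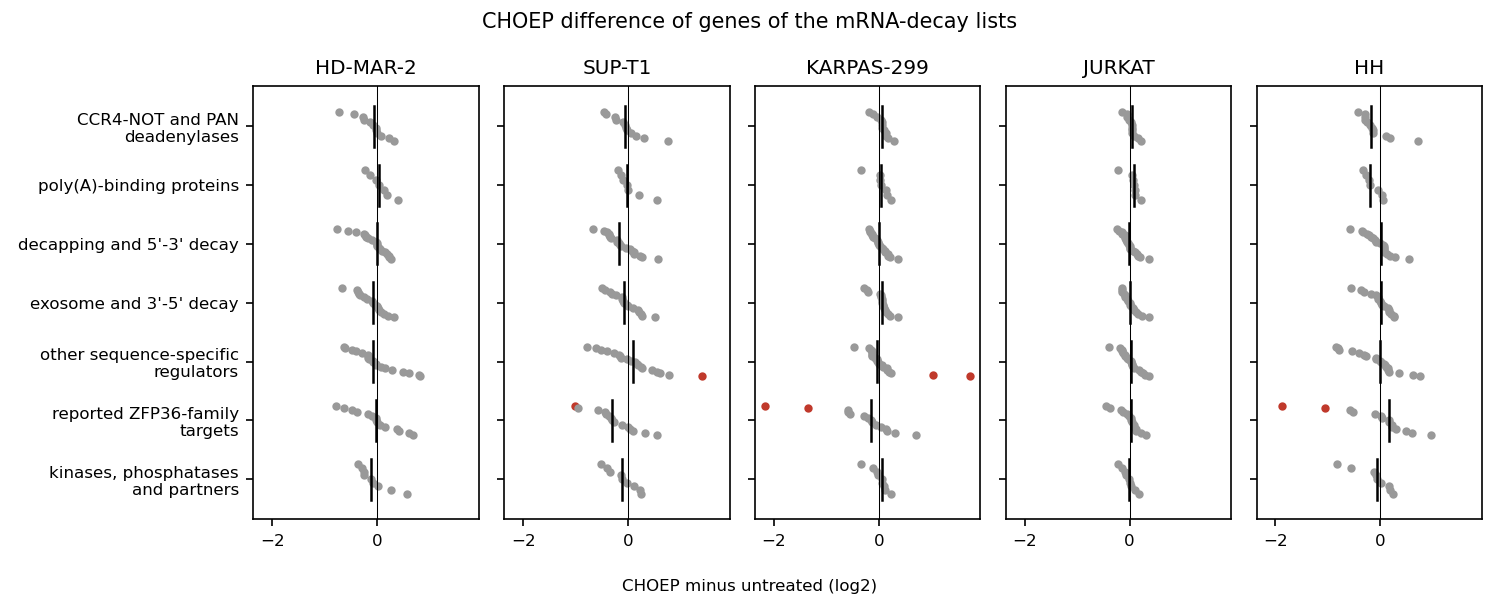
Difference between CHOEP-treated and untreated arrays (log2) for each tested gene of the 7 mRNA-decay lists in the 5 lines, in grey, with called genes in red and a vertical bar at each list's median. Red points appear only in the list of other regulators, to the right in SUP-T1 and KARPAS-299, and in the target list, to the left in SUP-T1, KARPAS-299 and HH.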

How the data were processed

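The platform was the 1-colour Illumina HumanHT-12 v4 array, with 1 array for each of 30 cultures. The authors deposited signal intensity per probe and array as read by BeadStudio (version 3 in the submitters' processing notes), not normalised, with a detection p-value per probe computed by BeadStudio against negative controls. The authors also deposited log2 values normalised by robust splines with lumi, used here as an alternative. Of 48107 probes, 47323 have values. In the platform annotation 30113 of these carry 1 gene symbol, 8 several and 17202 none, and names were updated by Entrez number for 30074. Gene coordinates and promoter windows are those of RefSeq on GRCh38.p14, and ZFP36L2 and CNOT7 are named without a window.

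The neqc function of limma 3.58.1 (R 4.3.3) corrected the intensities for background, with the detection p-values standing for control probes and an offset of 16, and quantile normalised them on the log2 scale. A probe was kept if 3 or more arrays had a detection p under 0.01, which left 22652. Each of 12482 genes was read from its brightest probe by mean signal. A linear model with 1 mean per group (10 groups) and empirical Bayes moderation gave the CHOEP difference in each line, F tests between lines and comparisons of untreated lines. P was adjusted by Benjamini-Hochberg over all kept probes, and for pairs of untreated lines over all probes and pairs together. A call in a line needs a fold of at least 2 and adjusted p under 0.05. Where a probe was detected on no array of 1 group, the fold is a bound, for which the level of that group is on each array the lowest detected signal, or the probe's own where higher, while calls use the fitted values.

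Median signal per array was 81.1 to 122.6, and the number of arrays limits the precision. No arrays were identical (highest correlation 0.9958). Same-numbered CHOEP-treated and untreated arrays were not taken as pairs, since their residuals had a correlation over 0.1 in 3 of 15 cases. On 22652 simulated probes for HD-MAR-2, all 200 changed probes were recovered (100%), without testing the normalisation. The 100% holds only for the sizes of difference put in, and recovery at other sizes was not tested.

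The members and lists were chosen with earlier results of these data known. The genes named are the 10 members, up to 4 genes of each list with the largest difference among those called, and the 3 genes most correlated with BTG1 and with ZFP36L2. Alternatives changed the normalisation (the authors' values, quantiles without background correction, or median scaling) and the filter (none, or detection on all 3 arrays of a group). Others used the next probe of a gene, a block for the replicate number, robust variance with an intensity trend, fits of each line alone, calls with no fold threshold, and fits without each array in turn.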

Additional observations from a re-analysis of the deposited data

Results flagged for a closer look

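The response of 3 relatives differed between the 5 lines by an F test of the difference itself. The adjusted p was 2.47e-06 for BTG3, 1.27e-05 for TOB1 and 0.0274 for ZFP36L1, whose result was lost under median scaling (0.11) and without JURKAT CHOEP replicate 3 (0.0593) or JURKAT untreated replicate 1 (0.0551). BTG3 fell most in HD-MAR-2 (-1.38) and TOB1 rose most in SUP-T1 (1.67). ZFP36L1 lay near -0.6 in HH, HD-MAR-2 and SUP-T1 and at -0.19 and -0.12 in KARPAS-299 and JURKAT.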

How the results depend on the processing

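The 9 member and line combinations called up were 8 with the authors' values, 12 without the fold threshold and 9 or 10 in every fit with 1 array left out. The 1 called down became 2 under median scaling and 2 with the next probe of each gene (in both cases by adding BTG3 in SUP-T1, at -1.11 and -1.09), and 6 without the fold threshold. It stayed at 1 in all fits with 1 array left out. Under median scaling the median CHOEP difference over the kept probes was -0.15 in SUP-T1 and -0.17 in HD-MAR-2. In the other lines it lay from -0.07 to 0.00, and the values under median scaling include this shift. The number of relatives whose response varied between lines was 3, 2 under median scaling and 2 with the replicate number as a block, which the labels do not describe as pairing. It ranged from 2 to 5 with 1 array left out (5 without SUP-T1 CHOEP replicate 2). Under the block ZFP36L1 had an adjusted p of 0.0614 and CNOT8 in HD-MAR-2 of 0.0564. Relatives that rose at an adjusted p under 0.05 alone numbered 4, or 2 under median scaling, 3 with the block, each line alone or the next probe, and 2 to 5 with 1 array left out, and those that fell numbered 6, or 6 to 7. Members whose untreated level differed between lines numbered 9, or 8 under median scaling, and the 64 comparisons of untreated lines ranged from 49 under median scaling to 69 with the next probe. TOB1 in HH passed 2-fold without HH untreated replicate 3 (1.04), and ZFP36L2 in KARPAS-299 lay below it in the authors' values (0.98). No called difference changed sign. The cause of these changes was not tested. A block for untreated levels could not be fitted, since the replicate numbers lie within lines, and lines fitted alone give no F test of the CHOEP response between lines.

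With 3 cultures of each line, p-values measure the spread between cultures and not between lines of a disease. Each line received 1 dose, its own IC50, at 1 time, so line and dose cannot be told apart. Line and chip, and treatment and array position, cannot be told apart. Of the members 6 rest on 1 probe each, and the probe of ZFP36L2 was near background in untreated KARPAS-299.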
